A study of Mus musculus with 8 samples.

Results

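The transcripts described here carry the annotation class retained intron: alternative forms of a gene that keep sequence which other forms of the same gene splice out. Members were chosen by that class, given in the deposited transcript names, and by a mean of at least 1 TPM over the 8 libraries, with the genes Srsf1 to Srsf11 left out. TPM is an abundance per unit of transcript length, expressed on a common total for each library. Of 20489 retained-intron transcripts outside those genes, 10203 reached that level (49.8%), among 44855 transcripts of any class that did. The members belonged to 4766 genes. The cells were CD45-sorted intraepithelial lymphocytes of C57BL/6 mice, the immune cells of the gut lining, cultured for 24 h at 37 C in RPMI medium with 10% serum. The osteopontin group had recombinant osteopontin at 2 µg/ml in the medium, and the null group did not. Each group had 4 libraries, named 1, 2, A and B, with 49109000 to 71399800 reads assigned to transcripts. No label ties a library to an animal or a culture of its own. All p-values therefore describe only how much these 8 libraries varied, and part of that variation may be technical. All 8 T cell marker genes checked were above the level threshold, with a summed level of 3851 to 4495 TPM, and the plasma cell markers summed to 3559 to 11819 TPM.

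Splicing joins exons and removes the introns between them. A transcript that keeps an intron is often held in the nucleus, where it may be spliced later, or is degraded in the cytoplasm by nonsense-mediated decay when the intron brings in a stop codon. Lymphocytes use this layer of control in activation and differentiation, and several genes of the splicing machinery, as well as Ogt, the enzyme that attaches O-linked N-acetylglucosamine to proteins, are known for regulated intron retention. Reads inside an intron can also come from transcripts that are not yet finished, and in these libraries the sources cannot be told apart.

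The introns kept by the members could be read from the transcript sequences of GENCODE M21 (GRCm38), which matched the deposited transcripts by identifier and length for 10123 of the 10203 members. The sequences were picked because they are short enough to be seen whole and belong to members on which the results turn. Each runs 5′ to 3′ on its gene's strand and is an intron in protein-coding transcripts of the gene but exonic in the member. Capitals mark the first and last pair of bases, which the splicing machinery recognises as splice sites.

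Rps16, Klrd1 and Rps20 are introns of very abundant members (a ribosomal protein, the CD94 subunit of a natural killer receptor, and another ribosomal protein).

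Rps16, chr7:28352274-28352362, plus strand, 89 bases: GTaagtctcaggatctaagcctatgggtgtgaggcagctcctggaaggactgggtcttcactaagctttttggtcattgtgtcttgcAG

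Klrd1, chr6:129596722-129596861, plus strand, 140 bases: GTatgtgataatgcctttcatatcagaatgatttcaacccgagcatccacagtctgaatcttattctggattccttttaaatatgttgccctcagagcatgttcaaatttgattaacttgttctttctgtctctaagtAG

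Rps20, chr4:3835292-3835483, minus strand, 192 bases: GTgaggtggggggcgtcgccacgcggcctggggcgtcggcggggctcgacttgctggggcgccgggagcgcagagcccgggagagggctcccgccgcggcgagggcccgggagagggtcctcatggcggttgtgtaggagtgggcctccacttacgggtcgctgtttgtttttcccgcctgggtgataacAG

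Mrps26, a mitochondrial ribosomal protein, and Prelid1, a mitochondrial lipid transfer protein, are shown as members that made up most of the transcripts of their gene. Hnrnpa2b1, an RNA-binding splicing regulator, is shown for contrast in base composition.

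Mrps26, chr2:130564228-130564307, plus strand, 80 bases: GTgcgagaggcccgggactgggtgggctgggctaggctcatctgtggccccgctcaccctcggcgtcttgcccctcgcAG

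Prelid1, chr13:55324445-55324526, plus strand, 82 bases: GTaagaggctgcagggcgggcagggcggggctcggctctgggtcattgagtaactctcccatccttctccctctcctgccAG

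Hnrnpa2b1, chr6:51463255-51463410, minus strand, 156 bases: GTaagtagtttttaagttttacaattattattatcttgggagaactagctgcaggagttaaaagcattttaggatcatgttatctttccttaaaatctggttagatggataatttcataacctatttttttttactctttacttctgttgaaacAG

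Ogt, H2-T23 and Arhgap30 are introns of members whose groups of libraries did not overlap in TPM.

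Ogt, chrX:101640111-101640217, plus strand, 107 bases: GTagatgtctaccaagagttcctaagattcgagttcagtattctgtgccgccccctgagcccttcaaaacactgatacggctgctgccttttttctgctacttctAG

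H2-T23, chr17:36030232-36030370, minus strand, 139 bases: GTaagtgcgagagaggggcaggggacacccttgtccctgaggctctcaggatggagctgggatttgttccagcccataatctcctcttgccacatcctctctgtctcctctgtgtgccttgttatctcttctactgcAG

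Arhgap30, chr1:171407636-171407727, plus strand, 92 bases: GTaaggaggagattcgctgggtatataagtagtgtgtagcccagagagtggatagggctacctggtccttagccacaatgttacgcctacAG

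Every one of these 9 introns opened with GT and closed with AG. Their GC content ran from 28.2% in Hnrnpa2b1 to 72.5% in Mrps26. The introns of Rps16, H2-T23 and Hnrnpa2b1 opened with GTAAGT, a strong match to the end of the U1 small nuclear RNA that reads the 5′ splice site. The intron of Rps20 was the first of its gene, as was that of Ogt in at least 1 coding transcript, and those of H2-T23, Hnrnpa2b1 and Arhgap30 were the last in at least 1. The Rps20 and Ogt members begin at chr4:3835488 and chrX:101640108, only a few bases ahead of these introns. Whether they are kept introns or other starts of the transcript was not tested.

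Longer introns are shown by their splice sites, with intron bases in capitals and exon bases in lower case (the exon's last 3 bases and the intron's first 6, then the intron's last 20 and the next exon's first 3). Gramd1a, a cholesterol transfer protein of the endoplasmic reticulum, and Rsrp1, a nuclear arginine- and serine-rich protein, were the most abundant members after Itm2b. The Gramd1a intron is 1 of 3 overlapping intervals in that member, set by alternative splice sites. Cd8a encodes the CD8 alpha chain that marks most intraepithelial T cells.

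Gramd1a 5′ splice site, intron at chr7:31134581-31135596, minus strand, 1016 bases: tcgGTGATC

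Gramd1a 3′ splice site, same intron: AAGACCCTTCTCTGAATTAGaag

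Rsrp1 5′ splice site, intron at chr4:134925433-134926734, plus strand, 1302 bases: gagGTAAGT

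Rsrp1 3′ splice site, same intron: AAAATTCTCTTCCTCTTTAGcat

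Cd8a 5′ splice site, intron at chr6:71373998-71374502, plus strand, 505 bases: aagGTTTGG

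Cd8a 3′ splice site, same intron: GCACCCTATTGCTTTTGCAGtga

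The Rsrp1 site carried GTAAGT, whereas the 5′ sites of Gramd1a and Cd8a departed from it.

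Among all members, 3412 (33.4%) held at least 1 whole coding intron inside an exon, and 2255 of these held exactly 1, with up to 19 in a single member. A further 6569 (64.4%) overlapped only part of a coding intron. The median length was 1319 bases for members with a whole intron and 700 bases for those with part of one. Members with a whole intron had a median of 4.61 TPM and 7.26% of their gene, and those with part of one 4.12 TPM and 8.10%. The remaining members lay in genes without a coding intron in the annotation (119), overlapped none (23) or were not matched (80).

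The whole introns were short. An intron counted as kept only if it lay whole inside an exon of a member, which long introns meet less easily. Introns covered only in part were counted among the others. The length difference thus depends in part on this definition, by an amount that was not tested. The 4752 different introns kept by members had a median of 239.5 bases (quartiles 109 and 596), and 21.5% were under 100 bases. The 26896 other coding introns of the same genes had a median of 795 bases (quartiles 240.0 and 2113), and 9.72% were under 100 bases. Introns found only in retained-intron transcripts below the level threshold (3226) lay between these, with a median of 350.0 bases. Median GC content was 52.2% in the introns of members and 49.7% in those below the threshold. GT and AG ended 98.1% of members' introns and 98.2% of those below the threshold. GTAAGT opened 415 (8.73%) of members' introns against 10.4% of those below the threshold, and GTGAGT opened 14.5% and 14.0% (both motifs searched on the transcribed strand, at the first base of the intron only). These are descriptions of annotated forms: introns of a gene are not independent replicates, and intervals of 1 gene can overlap. Of the 4752 introns, 659 (13.9%) were kept by 2 or more members.

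**Figure D1:**
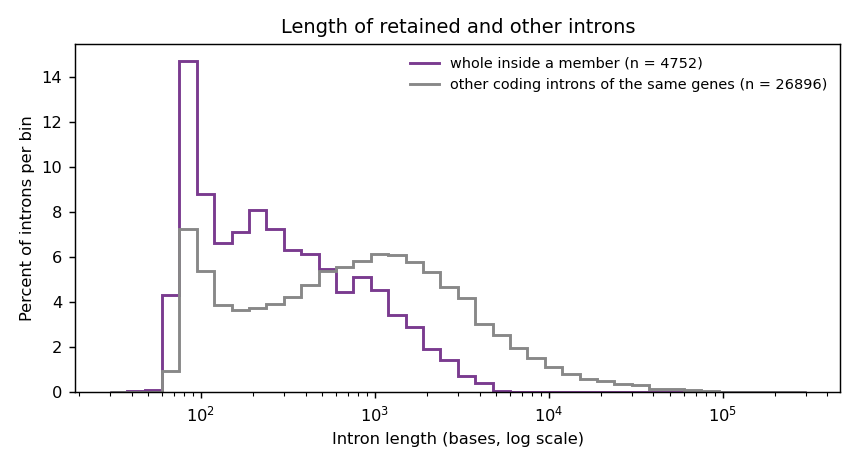
Length distribution of the 4752 coding introns kept whole by members (purple) and of the 26896 other coding introns of the same genes (grey); the horizontal axis is length in bases on a log scale and the vertical axis the percent of introns in each bin. The retained introns lie to the left, with a median of 239.5 bases against 795 bases. Only introns whole inside an exon of a member count as kept, and those covered in part are among the others.

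Most members were minor forms of their gene. The median level was 4.27 TPM (quartiles 2.12 and 9.42), and the median share, the transcript's TPM as a percentage of the summed TPM of its gene, was 7.81% (quartiles 3.95 and 14.5). The share was under 10% for 6155 members (60.3%) and 50% or more for 136. A level of 100 TPM or more was reached by 79. Since the mean TPM chose the members, these levels are descriptive. Just inside the threshold lay Supv3l1, Npepps and Clk3, at 1.0003, 1.0004 and 1.0009 TPM, and just outside lay forms of Kdm5a, Phykpl and Actr8, at 0.9997, 0.9994 and 0.9986 TPM.

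The most abundant member, a 935-base form of the membrane protein Itm2b, covers only part of an intron. It stood at 762, 656, 713 and 812 TPM with osteopontin and 786, 875, 741 and 777 TPM without in libraries 1, 2, A and B, and all later quartets keep that order. It made up 42.5 to 55.3% of Itm2b transcripts. The groups overlapped in both measures. Next came a 3722-base form of Gramd1a, at 510.4, 529, 536 and 626 TPM with osteopontin and 532, 533, 580.1 and 596 TPM without. Its share of 49.03 to 53.0% was among the 5 least variable of all members with a mean of at least 5 TPM. The 3051-base form of Rsrp1 stood at 465 to 609 TPM and was the main form of its gene, with 55.8 to 70.4%.

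Ribosomal protein genes contributed 4 of the 12 most abundant members. The Rps16 form that holds the intron shown above stood at 458, 587, 485 and 524 TPM with osteopontin and 579, 605, 371 and 329 TPM without. Another Rps16 form, which covers only part of an intron, stood at 347 to 522 TPM. The Rps20 form starts just ahead of its intron. It was the main product of its gene in every library, with 81.3 to 86.6% of Rps20 at 268 to 378 TPM. A 464-base form of Rpl13a behaved otherwise, at 199, 379, 198 and 686 TPM with osteopontin and 169, 195, 200.1 and 709 TPM without. Both B libraries were above the other 6 in this form, and the groups overlapped. These genes have many near-identical processed copies in the genome, so their transcript levels are uncertain.

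Immune genes were also among the most abundant. The Klrd1 form stood at 417.4, 402, 368 and 379 TPM with osteopontin and 346, 363, 377 and 319 TPM without, or 25.4 to 29.95% of Klrd1. A 4209-base form of H2-Q7, a non-classical class I antigen-presenting molecule, held 7 annotated intron intervals, some of them overlapping, and stood at 354, 353, 335 and 453 TPM with osteopontin and 336, 331, 357 and 358 TPM without. Osteopontin B was highest and the groups overlapped. H2-Q7 shares reads with its close relatives, so the split among them is uncertain. Apol7e, of the apolipoprotein L family, stood at 399 to 511 TPM, and Ppia, which encodes the protein-folding enzyme cyclophilin A, at 349 to 502 TPM. The forms of both cover only part of an intron, as do the Rpl13a form above and the Srrm2 form next. A 597-base form of Srrm2, a scaffold of nuclear speckles and the spliceosome, stood at 407, 409, 462 and 513 TPM with osteopontin and 388, 348, 405 and 376 TPM without. Every osteopontin library was above every null library in this form, but its share of Srrm2 overlapped, at 41.1, 38.2, 42.3 and 40.7% with osteopontin and 39.7, 40.4, 39.2 and 39.3% without.

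**Figure D2:**
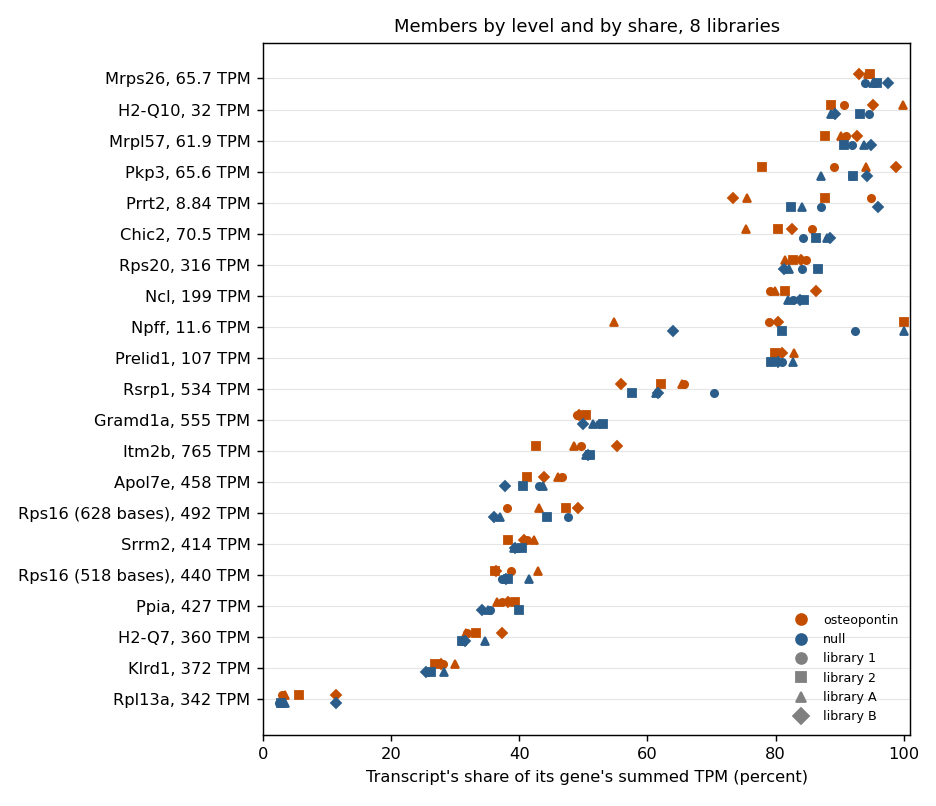
Share of each transcript in the summed TPM of its gene, in percent, for the 12 most abundant members and the 10 with the highest shares (Rps20 is in both sets); each point is a library, with colour for the group and shape for the library name, and labels give the mean TPM. The points of both groups lie over each other along the rows, and Rpl13a sits near 11% in both B libraries. The highest shares are those among genes of at least 10 TPM with at least 1 TPM in other forms.

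In some genes the form annotated as retained intron was nearly the whole output. Shares were ranked among genes of 10 TPM or more with at least 1 TPM in other forms, without predicted and clone-named genes. Mrps26 had the highest share among these, 94.5, 94.8, 94.5 and 93.0% with osteopontin and 94.0, 95.9, 95.3 and 97.6% without. H2-Q10, a secreted class I molecule, followed with 88.6 to 99.9%, Mrpl57 of the mitochondrial ribosome with 87.8 to 94.9%, and Pkp3, a desmosome protein, with 77.8 to 98.9%. The other forms of H2-Q10 had a mean of only 2.60 TPM, and the caution on shared reads given for H2-Q7 applies to it too. Prrt2, a synaptic membrane protein, lay at 73.3 to 95.9%, and Chic2, a vesicle-associated protein, at 75.4 to 88.5%. Ncl, which encodes the nucleolar protein nucleolin, made 79.1 to 86.3% of its transcripts as a 3072-base form with a pair of whole introns. Prelid1 lay at 79.2 to 82.9% and Npff, a neuropeptide, at a mean of 81.4% from only 7.78 to 17.5 TPM. In all of these shares the groups overlapped. The forms of Mrpl57, Pkp3 and Chic2 cover only part of an intron.

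Spread between libraries was large for many members. Of the 10203, 4142 (40.6%) were listed at 0 in at least 1 library, and of the 4543 with a mean of at least 5 TPM, 769 (16.9%) were. Protein-coding transcripts at the same thresholds were listed at 0 in 33.3% and 9.99%. The SD over the 8 libraries of the log2 ratio to the rest of the gene had a lower median in members than in protein-coding transcripts of at least 5 TPM, 0.657 against 0.765. The least variable forms, beside Gramd1a and Srrm2, were a 1554-base form of Hnrnpa2b1, at 16.3 to 18.3% of its gene, and forms of Appl2, an endosomal adaptor, at 15.2 to 17.3%, and of Cd8a. The Cd8a form stood at 231, 208, 213 and 219 TPM with osteopontin and 218, 215, 195 and 192 TPM without and kept a share of 36.1 to 40.03%. Among the most variable were forms of Inpp5d, Idh3g, H2-Ke6 and Ndufa5, each of which was listed at 0 in at least 1 library. The 364-base form of Inpp5d, the SHIP1 lipid phosphatase that restrains lymphocyte signalling, stood at 17.5, 33.9, 0 and 0 TPM with osteopontin and 13.3, 25.7, 63.7 and 0 TPM without. For Idh3g, a mitochondrial isocitrate dehydrogenase subunit, the form stood at 11.98, 0, 0 and 0 TPM with osteopontin and 33.6, 19.5, 25.03 and 48.8 TPM without, with every null library above every osteopontin library.

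Together the members made up 9.55, 9.50, 9.86 and 11.0% of all TPM in the osteopontin libraries and 9.54, 8.59, 9.70 and 9.77% in the null libraries. The means were 9.99 ± 0.721% with osteopontin and 9.40 ± 0.546% without (SD, n = 4 each). The groups overlapped, and the difference of 0.586 percentage points was smaller than the pooled SD within groups of 0.640. It fell to 0.234 points without osteopontin B and to 0.317 without null 2. No test was made of this sum. Members with a whole intron accounted for 3.42 ± 0.312% with osteopontin and 3.22 ± 0.193% without, and those with part of one for 6.33 ± 0.392% and 5.96 ± 0.342%. Transcripts annotated for nonsense-mediated decay made up 2.93 ± 0.281% and 2.74 ± 0.0794%, and protein-coding transcripts 62.7 ± 1.45% and 64.0 ± 1.64%.

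Osteopontin B was the highest library for retained-intron, nonsense-mediated decay and processed transcripts alike, and null 2 the lowest. Osteopontin B also had the fewest assigned reads and the highest mitochondrial ribosomal RNA, 0.390% of TPM against 0.127 to 0.134% in the other osteopontin libraries. Null B followed with 0.258% against 0.116 to 0.1197% in the other null libraries. Fibroblast markers summed to 130.1 and 88.2 TPM in null 1 and null A and to at most 8.19 TPM in every other library. Malat1, a nuclear RNA, was higher in every osteopontin library, at 980.5 to 1065 TPM against 696 to 908 TPM. In Neat1, another nuclear RNA, the groups overlapped, at 729 to 1003 TPM with osteopontin and 744 to 914 TPM without. Macrophage and dendritic cell markers were lowest in both B libraries, at 68.2 and 74.0 TPM against 159 to 239 TPM, and enterocyte markers highest there, at 227 and 186 TPM against 139 to 171 TPM. The endothelial markers summed to 67.8 to 71.6 TPM in both B libraries and null 2 and to 29.4 to 42.7 TPM elsewhere. The part of these differences in the results for single members was not tested. In bulk libraries like these, fewer cells of a type and less RNA per cell cannot be told apart.

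**Figure D3:**
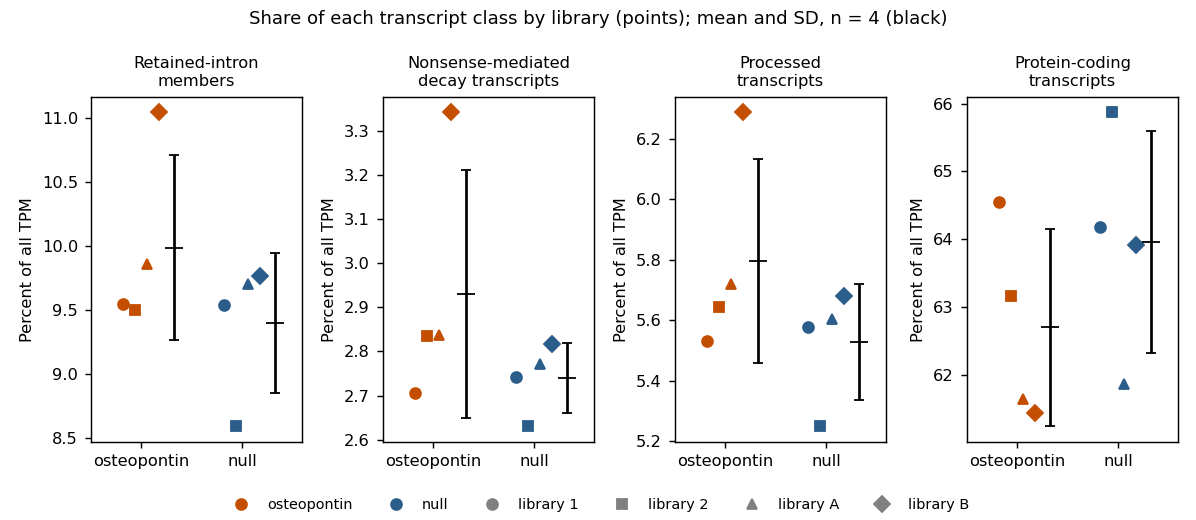
Percent of all TPM in retained-intron members, nonsense-mediated decay transcripts, processed transcripts and protein-coding transcripts for each library (points, shape for library name), with the mean and SD of each group of 4 in black; the vertical axes do not start at 0. Osteopontin B is highest and null 2 lowest in the first 3 panels, and the groups overlap in all 4.

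The level of each member was compared between groups with edgeR on the estimated reads, adjusted over all transcripts tested. Of the 9567 members that passed the filter on low counts, 0 were called higher and 0 lower at an adjusted p under 0.05. Among all 50650 transcripts tested, 0% were called in either direction. At an unadjusted p under 0.05 there were 149 members (1.56%), 104 higher and 45 lower, against 1.98% of all transcripts, 472 higher and 533 lower. The median log2 fold change was 0.06 for members, 0.00 for all transcripts, -0.04 for protein-coding, 0.04 for nonsense-mediated decay and 0.06 for processed transcripts. Members were fitted higher with osteopontin in 55.0% of cases. The precision was low: the 95% interval stayed inside a 2-fold change either way for 1506 members (15.7%), and for 1312 of the 4531 tested with a mean of at least 5 TPM (29.0%).

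DESeq2 on the same reads called 12 members higher and 7 lower, against 0.16% and 0.195% of all transcripts in those directions. The 10 members nearest to a call by edgeR (Dld, Ogt, Arrb2, Slc38a6 and Arhgap30 higher, Prrc2a, Cep170b, Zfand2b, H2-T23 and Pias3 lower) were among these 19. In TPM, 246 members (2.41%) had every osteopontin library above every null library and 83 (0.813%) had every one below. Among all 44855 transcripts of at least 1 TPM the shares were 1.83% and 1.09%.

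The host genes as a whole were measured more precisely. Of 4764 host genes tested on summed reads with edgeR, 0 were called in either direction (0% of all 18631 genes), and the smallest adjusted p was 0.470. At an unadjusted p under 0.05 there were 234 host genes (4.91%) against 3.93% of all genes. For 95.5% of host genes the 95% interval stayed inside a 2-fold change.

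**Figure D4:**
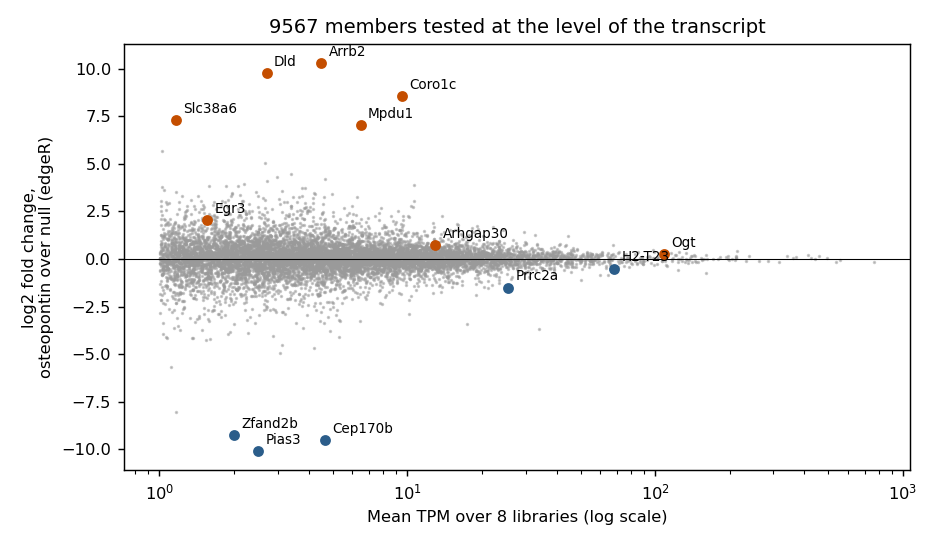
Log2 fold change of osteopontin over null from edgeR against mean TPM (log scale) for the 9567 members tested; grey points are members, and the labelled points are those nearest to a call in the level or share test (orange higher, blue lower). The scatter narrows with level, and none of the points passed the adjusted threshold for the level.

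Of these 10, 4 had a mean above 10 TPM. Prrc2a encodes a large RNA-binding protein, and its 763-base form (ENSMUST00000173558.1, chr17:35149177-35150366, minus strand) covers part of an intron. It stood at 16.2, 11.2, 16.2 and 10.7 TPM with osteopontin and 41.9, 29.7, 35.5 and 42.5 TPM without. Every osteopontin library was below every null library. The means were 13.5 ± 3.04 and 37.4 ± 6.02 TPM (SD, n = 4 each), a log2 fold change of -1.50 ± 0.26 (SE) with a 95% interval of -2.10 to -0.91 and an adjusted p of 1.00 by edgeR. Its share was 9.91, 7.08, 9.75 and 7.05% with osteopontin and 22.04, 17.9, 20.8 and 21.02% without, again without overlap, and the share test gave an adjusted p of 0.817 by limma. The main coding form of Prrc2a went the other way in level, at 108, 103, 99.2 and 104 TPM with osteopontin and 92.5, 93.8, 87.7 and 98.9 TPM without. The reads of the gene as a whole had a log2 fold change of 0.05 ± 0.06 (SE). Summed in TPM over all forms, however, Prrc2a stood at 163, 157.8, 166 and 151.5 with osteopontin and 190.2, 166.2, 170.4 and 202.1 without.

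H2-T23 encodes Qa-1, the class I molecule that the Klrd1 product and its NKG2 partners bind. Its 1942-base form (ENSMUST00000174839.1, chr17:36030020-36032690, minus strand), which holds the 139-base intron shown above and another of 540.0 bases, stood at 63.4, 58.8, 55.4 and 51.9 TPM with osteopontin and 90.9, 76.3, 75.9 and 72.6 TPM without. All osteopontin libraries were lower, with means of 57.4 ± 4.91 and 78.9 ± 8.14 TPM (SD, n = 4 each). The log2 fold change was -0.50 ± 0.11 (SE) with an adjusted p of 1.00 by edgeR. Its share was 15.2, 14.7, 12.9 and 12.9% with osteopontin and 20.9, 17.4, 18.1 and 17.7% without, without overlap. Another retained-intron form of the gene, of 2642 bases, stood at 37.0, 35.5, 38.6 and 55.7 TPM with osteopontin and 31.5, 29.8, 39.6 and 34.1 TPM without, where the groups overlapped, and the coding form at 317, 302, 329 and 296 and 312, 329.7, 304 and 302 TPM.

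For Ogt the form of 3087 bases (ENSMUST00000150161.7, chrX:101640108-101654586, plus strand) stood at 112, 124, 115 and 128 TPM with osteopontin and 98.1, 91.2, 97.2 and 102 TPM without. All osteopontin libraries were higher, with means of 119.9 ± 7.76 and 97.2 ± 4.59 TPM (SD, n = 4 each). The log2 fold change was 0.26 ± 0.06 (SE) with an adjusted p of 1.00 by edgeR. The gene as a whole had a log2 fold change of 0.20 ± 0.06 (SE), and the share of the form overlapped, at 29.7, 31.2, 29.3 and 32.0% with osteopontin and 28.9, 28.8, 27.3 and 34.0% without. The main coding form, of 5384 bases, overlapped, at 109, 108, 110.4 and 118 TPM with osteopontin and 104, 88.6, 110.8 and 109 TPM without. A minor coding form of 3840 bases was above null in every osteopontin library, at 13.6, 18.4, 16.8 and 17.5 TPM against 9.98, 9.24, 7.35 and 7.58 TPM.

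For Arhgap30 the 4644-base form (ENSMUST00000135312.2, chr1:171388954-171410298, plus strand) stood at 14.7, 17.3, 12.8 and 20.6 TPM with osteopontin and 8.03, 10.9, 8.97 and 10.4 TPM without. All osteopontin libraries were higher, with means of 16.4 ± 3.37 and 9.57 ± 1.32 TPM (SD, n = 4 each), a log2 fold change of 0.72 ± 0.17 (SE) and an adjusted p of 1.00 by edgeR. The 5017-base retained-intron form of the same gene stood at 20.1, 15.7, 14.9 and 24.1 TPM with osteopontin and 11.0, 10.3, 14.0 and 10.1 TPM without, also without overlap. It falls outside the naming rule and was picked after its values were seen. Salmon divides reads among forms of a gene, so the pair is not independent. The share of the 4644-base form overlapped, at 8.82, 9.93, 6.998 and 10.6% with osteopontin and 4.84, 7.13, 5.498 and 6.19% without.

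**Figure D5:**
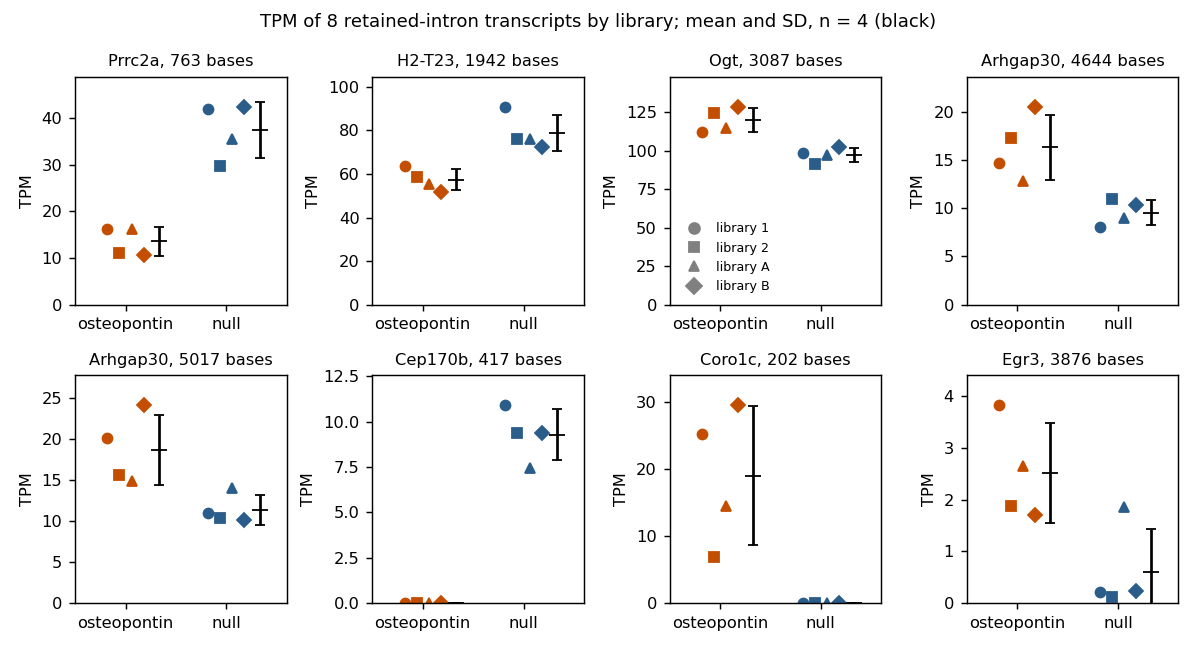
TPM of 8 retained-intron transcripts in each library (shape for library name, colour for group), with the mean and SD of each group of 4 in black; the vertical axes start at 0. Prrc2a, H2-T23 and Cep170b lie lower in every osteopontin library. Ogt, both Arhgap30 forms shown and Coro1c lie higher in every one, and null A overlaps the osteopontin libraries in Egr3.

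The share of a transcript was tested with limma on the log2 ratio of its TPM to the TPM of the rest of its gene, with 0.1 TPM added to each. Of 10153 members tested, 0 were called higher and 1 lower, against 0% and 0.00254% of all 39307 transcripts tested, of which this member was the 1 called. At an unadjusted p under 0.05 there were 347 members (3.42%), 203 higher and 144 lower, against 4.03% of all transcripts, 760 higher and 825 lower. The median log2 difference was 0.06 for members and -0.01 for all transcripts. In this ratio 196 members (1.93%) had every osteopontin library above every null library and 124 (1.22%) had every one below, against 1.47% and 1.41% of all transcripts tested.

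The called member was a 417-base form of Cep170b (ENSMUST00000221125.1, chr12:112743964-112744829, plus strand), which covers part of an intron of a gene for a centrosomal and microtubule-binding protein. It was listed at 0 TPM in all 4 osteopontin libraries and stood at 10.9, 9.39, 7.46 and 9.38 TPM in the null libraries, from 99.2, 95.2, 83.0 and 93.3 reads. The form thus met the level threshold for members through the null libraries alone. With a floor of 3 reads per library, a limit of counting error only, it was at least 28.8-fold lower with osteopontin. Its share in the null libraries was 35.6, 30.2, 31.7 and 32.1%. The log2 difference in the ratio was -6.47 ± 0.48 (SE), a size that depends on the 0.1 TPM added, with an adjusted p of 0.0336 by limma. The level test gave an adjusted p of 1.00 by edgeR. Its share call was lost in 15 of 17 alternatives, among them each left-out library. Summed over all forms Cep170b stood at 16.2, 17.8, 25.4 and 15.4 TPM with osteopontin and 30.6, 31.1, 23.5 and 29.2 TPM without, while the reads of the gene had a log2 fold change of 0.03 ± 0.10 (SE).

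The nearest in the other direction was a 202-base form of Coro1c, which encodes an actin-binding coronin. It stood at 25.3, 6.81, 14.5 and 29.6 TPM with osteopontin and was listed at 0 in all 4 null libraries. The form was at least 16.5-fold higher with osteopontin against a floor of 3 reads per library, on 69.0, 19.5, 33.9 and 57.5 reads. Its share test gave an adjusted p of 0.0580 by limma, which did not pass. The gene's reads had a log2 fold change of -0.17 ± 0.10 (SE). Its TPM summed over all forms was 64.3, 39.6, 48.1 and 63.65 with osteopontin and 40.7, 33.4, 41.4 and 31.7 without, where the groups overlapped.

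Several smaller forms showed the same pattern of presence in 1 group and near absence in the other, and none of them passed edgeR's level test or limma's share test. DESeq2 called Dld, Arrb2 and Slc38a6 higher and Zfand2b and Pias3 lower in level. Higher with osteopontin were forms of Dld, a mitochondrial dehydrogenase subunit, at 2.47, 8.79, 3.58 and 6.79 TPM with osteopontin and 0, 0, 0 and 0 TPM without, and of Arrb2, which encodes the receptor adaptor beta-arrestin, at 0.932, 7.15, 7.28 and 20.6 TPM with osteopontin and 0, 0, 0 and 0 TPM without. Against the floor these were at least 37.3-fold and 54.3-fold higher, and without osteopontin B the bound for Arrb2 was 30.9-fold. Slc38a6, an amino acid transporter, and Mpdu1, a protein of glycan synthesis, had forms at 1.45, 1.14, 1.75 and 4.95 TPM and 4.08, 11.6, 12.3 and 23.5 TPM with osteopontin, and each was listed at 0 in 3 null libraries and found in null A, at 0.0355 and 0.344 TPM. Lower were forms of Zfand2b, a proteasome-associated protein, at 6.26, 4.29, 2.92 and 2.51 TPM in the null libraries, and of Pias3, a SUMO ligase that inhibits STAT3, at 10.2, 7.97, 1.16 and 0.714 TPM, both listed at 0 in every osteopontin library. Against the floor these were at least 23.3-fold and 41.4-fold lower, and without null 1 the bound for Pias3 was 27.1-fold. Other forms of these genes are spliced over much of the same sequence, and Salmon divides shared reads among them, so a listed 0 need not mean that no RNA of the form was present. Forms listed at 0 throughout a group, Cep170b and Coro1c included, met the level threshold through the other group alone. They were then named for their small p-values, so their fold bounds are descriptive. Among all members, 8876 had a mean of at least 1 TPM in both groups, 785 with osteopontin only and 542 in the null group only. The same split over all transcripts is not given here, so these counts cannot be read as particular to retained-intron forms.

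Egr3, an early growth response transcription factor induced through the antigen receptor, had a 3876-base form of 1 exon at 3.83, 1.87, 2.65 and 1.70 TPM with osteopontin and 0.206, 0.118, 1.85 and 0.228 TPM without. Null A overlapped the osteopontin libraries. A coding form of 3940 bases ran the other way, at 0.399 TPM in osteopontin 1 and about 0 in the other osteopontin libraries, and at 3.78, 1.73, 1.52 and 4.25 TPM without. The share of the retained-intron form was 50.4, 74.4, 63.0 and 36.9% with osteopontin and 3.99, 4.01, 24.0 and 5.08% without, without overlap, with a log2 difference of 3.64 ± 0.67 (SE) and an adjusted p of 0.545 by limma. Fos, another immediate-early gene, stood at 0.168, 0.317, 0.114 and 14.8 TPM with osteopontin and 24.8, 14.1, 19.1 and 11.5 TPM without, so osteopontin B was with the null libraries. The part of this in the Egr3 share was not tested.

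Members were also counted over 10 gene lists, with 0 called in any list by edgeR at the level, by limma at the share or by edgeR at the summed gene. DESeq2 called 3 members of the lists (Ogt and Chd8 higher, H2-T23 lower) and 5 summed genes (Ogt, Ubn2 and Rpl10 higher, Klf4 and Zfp36 lower). Those not named by the rule were picked after their values were seen. Over all transcripts DESeq2 called 0.16% higher and 0.195% lower. Its share over all genes is not given here, so the gene calls cannot be read as particular to the lists. For comparison, all 50650 transcripts tested split into 25290 fitted higher and 25360 lower with osteopontin, with a median log2 fold change of 0.00.

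Of 115 spliceosome and hnRNP genes, 75 had members, 232 in all, with a median of 7.36 TPM and 4.94% of the gene. Of the 223 tested, 124 were fitted higher and 99 lower (median 0.03). Beside Srrm2, the highest were the 766-base form of Hnrnpa2b1, at 177 to 242 TPM, and a 4008-base form of Snrnp70, a U1 particle protein, at 182 to 208 TPM. Snrnp70 is annotated with part of an intron kept and held 28.0 to 32.7% of its gene in all libraries. Kinases and regulators of intron detention had 61 members in 19 of 29 genes, with 28 of 59 tested fitted higher and 31 lower (median -0.05). The form of Ccnl2, a cyclin that partners splicing kinases, stood at 132 to 195 TPM and 44.6 to 58.5% of its gene. That of Cirbp, a cold-induced RNA-binding protein, stood at 72.3 to 101.4 TPM and overlaps no coding intron, although it is annotated as retained intron.

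Genes of RNA export, decay and surveillance had 83 members in 32 of 56 genes, with 45 of 78 tested fitted higher and 33 lower (median 0.11). A form of Rbm8a, the exon junction protein Y14, made up 35.3 to 61.8% of its gene, and one of Zfc3h1, of nuclear RNA decay, 18.4 to 42.1%. Exosc8, of the RNA exosome, had a form at 18.8 to 41.3 TPM.

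T cell signalling and identity genes had 103 members in 48 of 83 genes, with a median of 9.12 TPM and 5.09% of the gene. Of the 100 tested, 66 were fitted higher and 34 lower, with a median of 0.13, and 2 had an unadjusted p under 0.05. The summed genes of this list had a median of 0.00. Arhgef1 had forms of 1087 bases at 234 to 317 TPM and of 4243 bases at 174 to 299 TPM, and Cd3e, a chain of the T cell receptor complex, had one at 191, 288, 217 and 315 TPM with osteopontin and 210.4, 224, 199 and 264 TPM without. The groups overlapped in all 3. Cytotoxic effectors had 19 members in 10 of 26 genes, with 10 of 18 tested fitted higher and 8 lower (median 0.07). A 219-base form of Stxbp2, which docks cytotoxic granules, stood at 88.2, 120.3, 124 and 70.8 TPM with osteopontin and 124, 130.1, 152 and 178 TPM without. All osteopontin libraries were lower, osteopontin A and null 1 being nearly equal, and the adjusted p was 1.00 by edgeR. Ccl5, an abundant chemokine of these cells, had a retained-intron share of only 0.870 to 1.45%.

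Heat shock, immediate-early and stress genes had few members, 35 in 19 of 53 genes. Of the 31 tested, 21 were fitted higher and 10 lower, with a median of 0.24, whereas the summed genes had a median of -0.14. Nfkbia, the inhibitor of NF-kB, had a form at 27.2, 9.61, 44.4 and 48.7 TPM with osteopontin and 14.5, 24.6, 14.4 and 49.8 TPM without, and the 487-base form of Hsp90aa1, a chaperone, stood at 8.76 to 50.4 TPM. Chromatin regulators had 106 members in 35 of 57 genes, with 65 of 99 tested fitted higher and 34 lower (median 0.24). The summed genes were fitted higher in 42 of 57 and lower in 15, and 13 had an unadjusted p under 0.05. Over all genes tested, 9335 were fitted higher and 9296 lower. Among the members, 3 forms of Chd3, a nucleosome remodeller, were the highest, at 54.8 to 90.1 TPM, 47.8 to 87.2 TPM and 20.8 to 42.9 TPM.

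Ribosomal proteins and translation factors had 214 members in 75 of 100 genes, but a median share of only 0.930%, with 111 of 203 tested fitted higher and 92 lower (median 0.06). The summed genes went the other way, 19 fitted higher and 80 lower with a median of -0.06. Class I and interferon-stimulated genes had 69 members in 34 of 52 genes, with a median share of 9.31%, 37 of 68 tested fitted higher and 31 lower (median 0.05). The H2-Q4 form that holds a 187-base intron stood at 177 to 253 TPM. Genes that host small nucleolar RNAs had 108 members in 27 of 44 genes, with 56 of 95 tested fitted higher and 39 lower (median 0.13). The Ncl and Rpl13a forms described above belong to this list.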

How the data were processed

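RNA was sequenced from 4 osteopontin and 4 null libraries. The submitters' processing notes name Salmon. Its version, the transcript release and the build were not given in the sources used here. Each library had 1 table, deposited by the authors, with estimated counts and TPM for 133618 transcripts of 52661 genes, per the file headers. Deposited effective lengths served only to set floors.

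Transcript class came from the deposited names; intron positions and sequences came from GENCODE M21 (GRCm38, introns of at least 30 bases, 1-based). Estimated counts were rounded and tested with edgeR 4.0.16 (quasi-likelihood, two-sided, robust, TMM, filterByExpr with a minimum count of 10), per transcript and summed per gene. Shares were tested with limma 3.58.1 (two-sided, trend, robust) on log2 ratios of TPM, for transcripts of at least 1 TPM whose gene had at least 1 TPM in other forms. P-values were adjusted by Benjamini-Hochberg over all features tested, threshold 0.05. Log2 fold changes are positive where osteopontin was higher. DESeq2 1.42.0, limma voom, other scalings, filters and pseudocounts, covariates and left-out libraries were the alternatives. The scripts were tested on simulated data.

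Members, lists and tests were chosen with earlier results of these data known. Named were the 12 members highest in level, 10 in share, up to 8 called or else 5 nearest per test and direction, 3 per list, 3 either side of the threshold and the 5 most and 5 least variable, leaving out predicted, clone-named and antigen receptor genes. This gave 66 members of 58 genes, not all of which are reported here.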

Additional observations from a re-analysis of the deposited data

Results flagged for a closer look

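Of 56 groups of 4 libraries examined, 7 held a library far from the other 3 by Dixon's criterion. Its nominal rate of about 1 group in 20 assumes normal values in groups not picked from the data. That rate therefore does not apply here, and no excess can be read from the count. Osteopontin 2 was lowest in Apol7e, at 451.7 TPM against 502.6 to 511.4 TPM. Osteopontin B was highest in the 4209-base H2-Q7 form, at 452.7 TPM against 335.1 to 354.3 TPM, and in the Slc38a6 form, at 4.951 TPM against 1.139 to 1.755 TPM. Null B was highest in Rpl13a, at 708.8 TPM against 168.6 to 200.1 TPM. Null A was the only null library above 0 in the Slc38a6 form (0.0355 TPM) and the Mpdu1 form (0.3444 TPM), and stood at 1.853 TPM in Egr3 against 0.118 to 0.2277 TPM. For Slc38a6 and Mpdu1 any value above 0 would have passed, since the other null libraries were at 0.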

How the results depend on the processing

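Intervals of single forms were wide and listed zeros were common. The part of depth, and of the division of reads among overlapping forms, in this was not tested. At the level of the transcript, 0 members were called in the main test and in every alternative but DESeq2, which called 19. For host genes 0 were called in the main test, 4 with DESeq2, 2 without a filter, 1 without osteopontin B (0 to 1 over the single left-out libraries) and 1 without both B libraries. Shares over all genes are not given for these alternatives, so the counts cannot be read as particular to host genes. For the share, 1 member was called in the main test and against coding forms alone, and 2 with a pseudocount of 0.01 TPM (Cep170b lower and Coro1c higher). It was 0 with a pseudocount of 1 TPM, in members of at least 5 TPM (which leaves Cep170b out), with transcripts above 0.1 TPM tested, with diffSpliceDGE, with the replicate block, with digit or letter names as a covariate, without null 1 and A, without both B libraries, and 0 to 0 over the single left-out libraries. The cause was not tested. The Cep170b share had an adjusted p of 0.0458 to 1.00 over 17 alternatives by limma and edgeR, with the same sign throughout. The summed share differed by 0.234 to 0.749 percentage points over the single left-out libraries. Of 262 alternatives for named transcripts, 236 kept direction and side of the threshold, 15 lost a call, 11 gained one and 0 reversed. Leaving libraries out of the bounds against the floor was chosen after seeing the data.

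Library names were checked as a pairing: deviations of same-named libraries correlated at 0.0712, 0.0485, 0.0437 and 0.122 for names 1, 2, A and B, and 7 of 8 libraries correlated best with their own name, a hint from the data and not the design. With the replicate block 0 members were called for level and share.

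List medians moved with single libraries. The median share difference of all members was -0.03 without null B, where that of all transcripts was -0.06, and the median level was 0.18 without null 1 and A, where that of all transcripts was 0.07. For chromatin regulators the median log2 fold change lay between 0.12 and 0.42, and for stress genes between 0.10 and 0.55, over 16 alternatives. Those of the spliceosome, export, kinase, cytotoxic and class I lists changed sign in some alternative.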

Other observations

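Most introns are removed by the major spliceosome, and a small class, often with AT and AC at their ends, by the minor spliceosome. Of the 4752 introns kept by members, 9 opened with AT and closed with AC, in Ift80, Rnf123, Tcea2, Nr2c2ap, Sms, Prim1, Trappc2, E2f6 and Pole2, at mean levels of 6.34, 6.32, 6.28, 5.89, 4.52, 2.83, 2.17, 1.56 and 1.32 TPM. These genes were picked after their values were seen. Of the 9, 8 had ATATCC as their first 6 bases. Another 15 introns (0.316%) opened with GTATCCTT on the transcribed strand, the related motif with GT, against 0.279% of introns found only below the level threshold. The 5′ splice sites of Sms, the spermine synthase gene, Prim1, a DNA primase subunit, and Ift80, a cilium transport protein, are shown with intron bases in capitals.

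Sms, intron at chrX:157460417-157461175, minus strand, 759 bases, 5′ splice site: gagATATCC

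Prim1, intron at chr10:128022973-128023582, plus strand, 610 bases, 5′ splice site: agaATATCC

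Ift80, intron at chr3:68990964-68994500, minus strand, 3537 bases, 5′ splice site: agcATATCC

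Whole introns of 61 members held the gene of a small RNA, 43 introns with a small nucleolar RNA and 20 with a microRNA. Examples, picked after their values were seen, are Snora65 in the 430.0-base intron of an Rpl12 form at 32.2 TPM, Mir7058 in the 75-base intron of a form of Lat, an adaptor of T cell receptor signalling, at 25.7 TPM, and Mir7115 in the 290.0-base intron of an Arrb2 form at 54.9 TPM. Gas5 and Eif4a2, both hosts of small nucleolar RNAs, had the most members, 14 each. The Gas5 members summed to 96.0, 98.3, 94.3 and 150.0 TPM with osteopontin and 93.3, 81.1, 123 and 107 TPM without. Those of Eif4a2, a translation initiation helicase, summed to 177, 181, 202.4 and 213 and 189, 154, 184 and 183 TPM. The groups overlapped in both. Aup1, a lipid droplet protein, made 64.0 to 76.6% of its transcripts as 12 retained-intron members.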
